A study of Mus musculus with 8 samples.

Results

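The tubulin tyrosine ligase-like genes (Ttll) encode enzymes that add amino acids to tubulin, and 10 of them were examined here in whole testes of mice aged 27 days. Members were taken by symbol: a probe set, the group of short probes on an Affymetrix array that reads one transcript, counted as a member when the platform annotation gave it 1 of the 10 gene names. This gave 28 of the 45037 probe sets on the array that are not controls, and they covered 9 of the 10 genes. Ttll2, for which no probe set was matched, was not analysed here. The series compared 4 mice titled wild type with 4 mice of genotype Brwd1-/-, 1 array per mouse. Brwd1 encodes a bromodomain protein, and the comparison asks which testis transcripts depend on it once spermatids have formed. The genotype entry of the controls gives both wild type and Brwd1+/-, so whether they carry 1 mutant copy is not settled. They are called wild type here. No treatment was given. The nature of the mutation is not stated in the labels.

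Tubulin carries glutamate and glycine side chains near the end of its tail, and together these marks form part of what is called the tubulin code. Glutamylases of the Ttll family start or lengthen glutamate chains, glycylases start or lengthen glycine chains, and both marks are dense on the microtubules of cilia and of the sperm tail. In mice, loss of Ttll1, Ttll5 or Ttll9 is known to disturb sperm tails and sperm movement. Ttll1, Ttll4, Ttll5, Ttll6, Ttll7 and Ttll9 were grouped as glutamylases, and Ttll3, which starts glycine chains, and Ttll10, which lengthens them, as glycylases. Ttll12, for which no such activity is settled, was put in neither group.

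Of the members, Ttll10 and Ttll9 were called lower in the mutants once the replicate number was fitted as a block, and the rest were not called in either direction. The stretches of DNA just before the annotated starts of these 2 genes, from the RefSeq tables of assembly GRCm38.p6, are shown beside that of Ttll5, a glutamylase known from sperm tails with no call here, so that the family members can be compared. Each line gives the 250 bases before the start on the gene's own strand, 5′ to 3′. Capitals mark matches, on either strand, to the letters GTTGCC (part of the X-box bound by RFX factors, which drive genes of cilia) or TGACG (part of the site bound by CREM, a regulator of genes in spermatids). The motifs TGACGTCA, which contains TGACG, and TATAAA were searched too and had no match in these 3 windows. Ttll9 is at chr2:152962235-152962484 on the plus strand, Ttll10 at chr4:156050818-156051067 on the minus strand, and Ttll5 at chr12:85824670-85824919 on the plus strand.
Ttll9: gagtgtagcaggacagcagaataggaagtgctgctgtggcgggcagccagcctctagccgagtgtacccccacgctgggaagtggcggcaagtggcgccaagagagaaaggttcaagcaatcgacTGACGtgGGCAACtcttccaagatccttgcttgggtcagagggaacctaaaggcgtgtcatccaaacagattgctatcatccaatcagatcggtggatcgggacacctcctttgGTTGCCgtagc
Ttll10: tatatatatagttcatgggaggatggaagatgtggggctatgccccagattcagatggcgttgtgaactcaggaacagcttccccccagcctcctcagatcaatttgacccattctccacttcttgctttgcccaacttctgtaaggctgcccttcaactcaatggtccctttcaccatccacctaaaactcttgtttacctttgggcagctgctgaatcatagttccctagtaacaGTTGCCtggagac
Ttll5: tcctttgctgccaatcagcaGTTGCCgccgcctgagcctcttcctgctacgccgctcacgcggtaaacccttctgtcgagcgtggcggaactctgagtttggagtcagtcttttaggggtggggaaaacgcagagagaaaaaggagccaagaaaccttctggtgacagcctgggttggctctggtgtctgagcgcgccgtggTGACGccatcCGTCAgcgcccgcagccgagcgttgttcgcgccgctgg

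The Ttll10 window held GTTGCC once, 13 to 8 bases before the start. The Ttll9 window held it 11 to 6 bases before the start and again, on the other strand, 118 to 113 bases before it, next to a TGACG match at 125 to 121. In the Ttll5 window GTTGCC lay 230 to 225 bases before the start, and TGACG matched at 48 to 44 and, on the other strand, at 38 to 34. Among 10 windows of the Ttll genes, which cover 9 symbols, 4 held GTTGCC, the last being the window of 1 of the 2 starts of Ttll3. Of all 32851 windows of this length, 10.4% held it. TGACG was in 2 of the 10 windows and in 17.8% of all, TGACGTCA in none of the 10 and in 1.55% of all, and TATAAA in 1 of the 10, that of Ttll6, and in 12.4% of all. No window for Ttll1 was matched. A match of letters describes the sequence and shows no binding.

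A few facts of the arrays bear on every value. The targeted gene did not separate the genotypes: its 5 probe sets, 4 of them tested, had log2 differences from -0.28 to 0.43, and none was called in any of the 3 fits used here; whether they read the mutated part is not given in the sources used here. Replicates 1 and 2 of both genotypes stood apart from replicates 3 and 4. Between these 2 pairs 40.4% of the 27022 probe sets tested were called, and all 11 measured markers of the epididymis, the duct beside the testis, were higher in replicates 3 and 4 (summed intensity 772 to 7722 in replicates 1 and 2 and 68183 to 86321 in replicates 3 and 4). The testis label itself was met, with 9 of 9 measured meiotic markers and 21 of 21 spermatid markers above the filter on dim probe sets. Each pair held 2 mice of each genotype, so the genotype difference was fitted without a block, blocked by replicate number (the replicate block) and blocked by pair (the batch block, though the labels name no batch). The labels do not say that mice of the same number belong together. Called means an adjusted p under 0.05 in limma over all probe sets tested.

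Ttll10 was the member with the largest difference. Probe set 1442762_at read 456.4, 736.6, 530.4 and 337.3 in wild-type replicates 1 to 4 and 75.9, 191.2, 109.3 and 197.2 in mutant replicates 1 to 4. Every mutant lay below every wild type, and the lowest wild-type value, in replicate 4, was above the highest mutant value, also in replicate 4. Intensity went from 515.2 ± 167.7 to 143.4 ± 60.3 (SD, n = 4 each), 3.41-fold lower, or -1.77 ± 0.33 (SE) in log2 units; limma gave an adjusted p of 0.0917 with no block, 0.0173 blocked by replicate and 0.0284 blocked by pair. Fold changes are on the scale of log2(intensity + 16), which understates the change of dim probe sets.

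The other Ttll10 probe sets that were tested gave the same direction. Probe set 1460494_at read 238.9, 323.9, 235.1 and 112.9 in wild type and 25.0, 74.6, 33.9 and 52.9 in mutants, again without overlap. It was 3.85-fold lower, a log2 difference of -1.95 ± 0.35 (SE) (limma, adjusted p = 0.0837, 0.0173 and 0.0225 in the unblocked, replicate-block and batch-block fits). Probe set 1445185_at read 205.1, 219.6, 317.5 and 184.8 against 14.2, 83.8, 89.0 and 62.2. This was 3.44-fold lower, and mutant replicate 1 was the lowest of the 8 mice. Probe set 1453717_s_at, 2.61-fold lower, read 325.3, 381.3, 402.0 and 206.9 against 59.7, 144.3, 134.0 and 133.5. These 2 probe sets were called with the replicate block (limma, adjusted p = 0.0194 and 0.0265) and with the batch block (0.039 and 0.0434), and neither without a block (0.13 for both). The mean mutant intensity of 1460494_at (46.6) and of 1445185_at (62.3) lay under the filter on dim probe sets (63.1). Both therefore passed the filter through the wild-type mice. Without the filter, 1460494_at was called with either block and 1445185_at with the replicate block only.

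Probe set 1442763_s_at, the brightest for Ttll10, showed a smaller difference. It read 616.6, 931.5, 724.1 and 391.8 in wild type and 149.8, 424.3, 315.6 and 362.5 in mutants, so that wild-type replicate 4 lay below mutant replicate 2. It was 2.11-fold lower and not called (limma, adjusted p = 0.353, 0.0762 and 0.158 in the unblocked, replicate-block and batch-block fits). Where a gene is represented by its brightest probe set, Ttll10 is therefore not called, since the 4 probe sets that were called are not used. Over the 8 arrays the 5 tested probe sets correlated with each other at r from 0.885 to 0.983, a description of values that share arrays and genotype. Probe sets 1453717_s_at and 1460494_at were designed from the same sequence record, so they are not independent reads of the transcript.

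The remaining 2 Ttll10 probe sets were dim and did not follow the others (r from -0.073 to 0.298 with them). Probe set 1431310_s_at read 24.7, 24.2, 89.5 and 104.9 in wild-type replicates 1 to 4 and 23.7, 26.0, 61.6 and 85.5 in mutants. It was higher in replicates 3 and 4 of both genotypes, as the epididymal markers were, and the part of that tissue in this signal was not tested. Probe set 1431309_at read 23.0 to 99.4 in wild type and 32.4 to 71.3 in mutants. Both lay under the filter on dim probe sets, and without the filter neither was called (limma, adjusted p from 0.817 to 0.999 over the 3 fits).

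**Figure D1:**
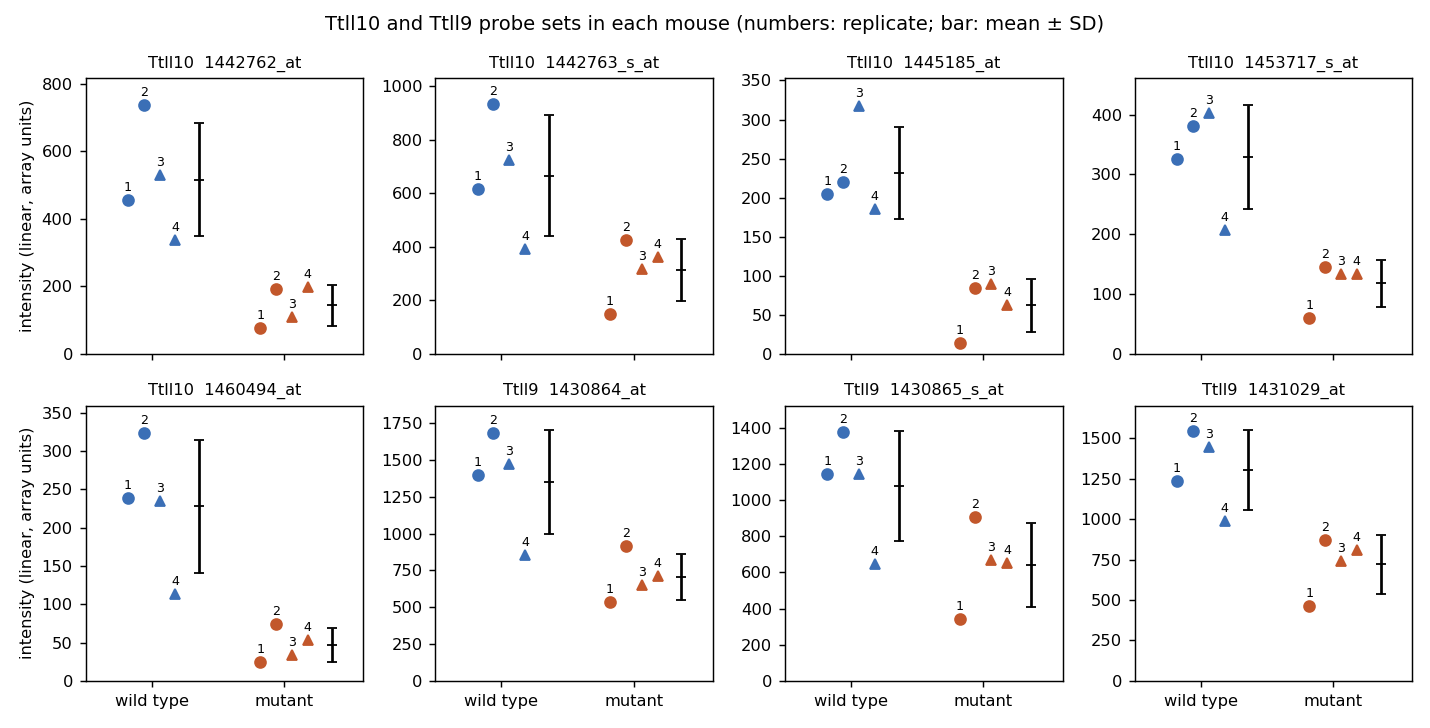
Intensity on a linear scale (vertical axis) of the 5 tested Ttll10 and the 3 Ttll9 probe sets in each mouse, by genotype; circles are replicates 1 and 2, triangles replicates 3 and 4, and bars the mean ± SD of 4 mice. The genotypes do not overlap in 4 of the 5 Ttll10 probe sets and in 1 of the 3 for Ttll9, and mutant replicate 1 is the lowest in every panel.

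Ttll9, the glutamylase with the largest difference, was lower by somewhat under 2-fold on all 3 of its probe sets. Probe set 1430864_at read 1397.9, 1684.4, 1470.3 and 853.7 in wild type and 538.0, 916.8, 653.9 and 710.0 in mutants. Only wild-type replicate 4 reached into the mutant range. Intensity went from 1351.6 ± 353.5 to 704.7 ± 158.5 (SD, n = 4 each), which is a log2 change of -0.91 ± 0.24 (SE). It was called with the replicate block alone (limma, adjusted p = 0.041, against 0.202 without a block and 0.0665 with the batch block). Without the filter on dim probe sets it was not called with the replicate block either (limma, adjusted p = 0.0622).

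Probe set 1431029_at read 1233.0, 1544.9, 1448.0 and 986.9 in wild type and 460.2, 873.8, 738.8 and 810.1 in mutants, without overlap. Its log2 difference was -0.86, and it too was called with the replicate block alone (limma, adjusted p = 0.046, against 0.207 and 0.0821). This call was also lost without the filter (limma, adjusted p = 0.0695 with the replicate block). Probe set 1430865_s_at, designed from the same record as 1430864_at, read 1141.1, 1376.3, 1141.2 and 648.3 against 341.0, 902.9, 667.5 and 649.5. It overlapped and was not called (log2 difference -0.76, limma adjusted p = 0.18 with the replicate block). The 3 probe sets correlated at r from 0.94 to 0.957 over the 8 arrays.

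Over the family, 20 of the 28 member probe sets passed the filter, which kept the 27022 probe sets with a mean log2(intensity + 16) above the 40th percentile. Without a block 0 of the 20 were called (limma), against 0.111% of all probe sets called lower. At an unadjusted p under 0.05, 9 were lower and 0 higher, against 5.17% and 2.24% of all. With the replicate block 6 of 20 were called lower (4 of Ttll10, 2 of Ttll9) and 0 higher, against 2.12% and 0.211% of all probe sets. With the batch block 4 of 20 were called lower, all of Ttll10, against 1.45%, and 0 higher, against 0.311%. In 5 of 20 every mutant lay below every wild type, against 3.8% of all, and in 0 of 20 above, against 2.27%. Several probe sets read the same gene, so the calls rest on 2 genes, and the 9 at an unadjusted p under 0.05 on 3: all tested probe sets of Ttll10 and Ttll9 and 1 of Ttll5. The member calls and the 5 without overlap include 1460494_at and 1445185_at of Ttll10. Their mean mutant intensity (46.6 and 62.3) lay under the filter (63.1), which they passed through the wild-type mice. With no filter, 3 members were called lower in the replicate-block fit, where 400 of all 45037 probe sets were called. In the batch-block fit it was 2 members, and 256 of all.

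The other glycylase, Ttll3, was measured by 2 tested probe sets, and neither was called. Probe set 1436604_at read 298.4, 250.1, 267.9 and 223.2 in wild type and 192.5, 239.1, 188.4 and 256.3 in mutants, overlapping values with a log2 difference of -0.24 ± 0.17 (SE) (limma, adjusted p = 0.577 with the replicate block). Probe set 1421219_at read 75.7, 37.1, 112.6 and 90.6 against 33.5, 41.9, 81.5 and 123.8, a log2 difference of -0.19 ± 0.39 (SE). It was called higher in replicates 3 and 4 than in replicates 1 and 2 (log2 difference 0.94, limma adjusted p = 0.0112). Its remaining probe set, 1451694_at, was under the filter, with 23.9 to 40.8 in wild type and 31.8 to 48.9 in mutants. Whether Ttll10 changed more than Ttll3 was not tested.

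Among the glutamylases, Ttll5 showed 2 bright probe sets that did not move alike. Probe set 1452890_at read 3244.2, 3742.7, 3855.2 and 3635.8 in wild type and 3693.9, 3700.1, 3538.7 and 3558.5 in mutants, a log2 difference of 0.00 ± 0.10 (SE). The mutant values lay within the wild-type range. Probe set 1431279_s_at read 2543.0, 2989.2, 2488.0 and 1964.8 against 1722.2, 1463.1, 2316.0 and 1598.6. Its log2 difference was -0.49, with only mutant replicate 3 inside the wild-type range, and it was not called (limma, adjusted p = 0.493, 0.173 and 0.201 in the unblocked, replicate-block and batch-block fits). Within an array the second minus the first averaged -0.55 log2 units in wild type and -1.04 in mutants. The annotation pairs both probe sets with the same gene and does not say which transcripts they read. Another, 1430469_at, lay under the filter, between 26.5 and 79.1.

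Ttll1, the catalytic subunit of a glutamylase complex, had small positive differences. Probe set 1436833_x_at read 2832.4, 2779.4, 2020.6 and 2435.0 in wild type and 3481.9, 4328.4, 2646.3 and 2420.5 in mutants, a log2 difference of 0.33 ± 0.20 (SE) (limma, adjusted p = 0.918, 0.255 and 0.199 in the 3 fits). Probe set 1426427_at read 1302.7, 1183.8, 917.1 and 919.8 against 1252.8, 1534.5, 915.6 and 976.4, a log2 difference of 0.10. Both were called lower in replicates 3 and 4 than in replicates 1 and 2, by 0.48 and 0.49 log2 units (log2 differences -0.48 and -0.49, limma adjusted p = 0.00728 and 0.00564). Its remaining probe set, 1443193_at, stayed between 2.1 and 26.4 and was not tested with the filter.

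The other glutamylases were not called. Ttll4 had probe sets of opposite sign: 1436249_at read 786.0, 1025.7, 778.5 and 705.3 against 760.3, 941.0, 540.0 and 491.5 (log2 difference -0.30), while 1428911_at read 415.5, 332.8, 463.0 and 521.5 against 565.2, 367.4, 582.0 and 462.1 (log2 difference 0.18). Its other probe sets, 1428912_at and 1459031_at, were under the filter, at 24.2 to 93.9 over all mice. Ttll6, read by 1455780_at alone, gave 993.7, 1020.7, 1082.3 and 1069.8 in wild type and 806.0, 1075.2, 1138.9 and 1139.5 in mutants, a log2 difference of -0.02 ± 0.15 (SE). Mutant replicate 1 was its lowest mouse, and each of the other 3 mutants read above at least 3 of the 4 wild types.

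Ttll7, a glutamylase of beta-tubulin, rested on 1 mouse. Probe set 1430615_at read 169.8, 206.2, 211.4 and 102.6 in wild type and 25.5, 134.6, 130.6 and 144.0 in mutants. Its log2 difference was -0.73 ± 0.44 (SE) and became -0.26 without mutant replicate 1, and it was not called in any fit (limma, adjusted p = 0.404 with the replicate block). Its other probe set, 1455377_at, was under the filter, at 22.3 to 68.2 in wild type and 3.8 to 54.5 in mutants.

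Ttll12 did not differ in one direction. Probe set 1437242_at read 487.2, 357.0, 445.1 and 358.6 in wild type and 694.9, 613.8, 297.5 and 307.0 in mutants. Mutants were thus above both wild types within replicates 1 and 2 and below both within replicates 3 and 4 (log2 differences 0.63 and -0.39). The difference between these 2 values was not called (interaction of -1.01 log2 units, adjusted p = 0.791 in limma). Probe set 1445451_at read 59.0 to 84.4 in wild type and 68.7 to 80.2 in mutants.

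**Figure D2:**
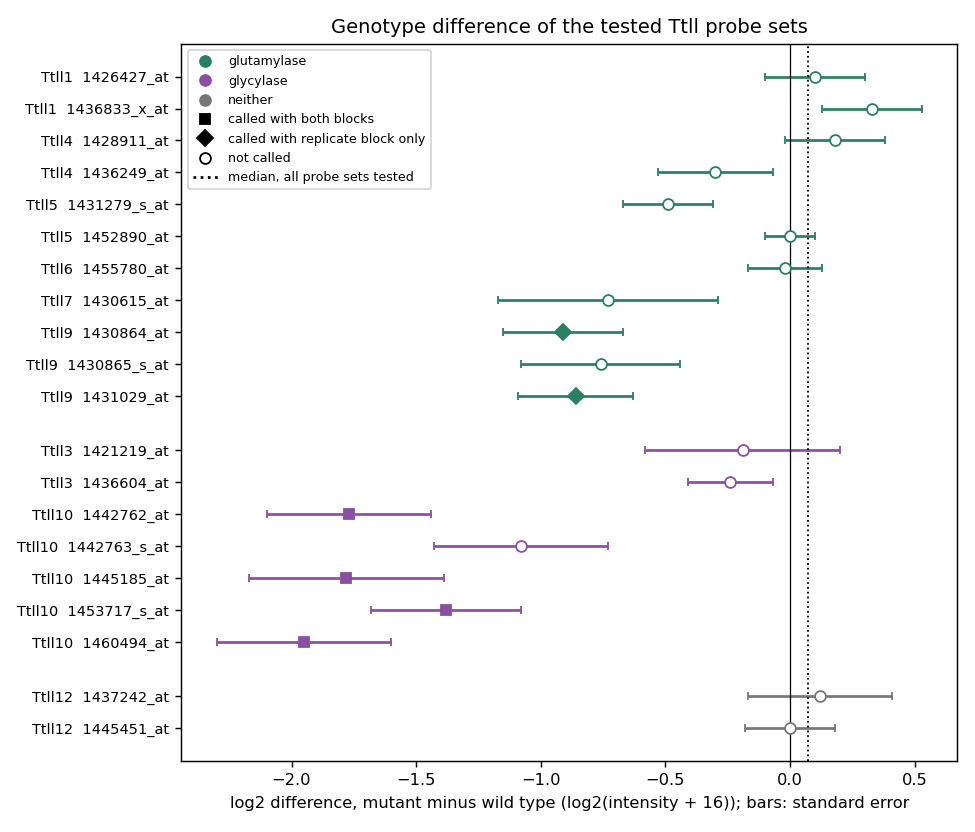
Log2 difference of mutant minus wild type (horizontal axis, on log2(intensity + 16)) with its standard error for the 20 tested member probe sets, by enzyme group; filled squares were called with both blocks, filled diamonds with the replicate block only, and the dotted line is the median of all 27022 probe sets, 0.07. The 5 Ttll10 probe sets run from -1.95 to -1.08 and the 3 Ttll9 probe sets from -0.91 to -0.76, and those of the other genes lie between -0.73 and 0.33.

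Set side by side, the glycylases had the lower median through Ttll10. The median log2 difference was -1.38 over 7 glycylase probe sets, all negative, and -0.30 over 11 glutamylase probe sets, of which 7 were negative. Over all 27022 probe sets it was 0.07, with 35.8% negative. The filter bears on this comparison. The glycylase probe sets it left out had log2 differences of 0.30 (1451694_at of Ttll3), -0.10 and -0.17 (1431309_at and 1431310_s_at of Ttll10). Without the filter the median was -0.66 over 10 glycylase and -0.25 over 16 glutamylase probe sets, a gap of -0.41 in place of -1.09. Over genes in place of probe sets, with the brightest probe set of each, the glycylase median was -0.66, since it then averages Ttll3 and Ttll10, and the gap to the glutamylases narrowed from -1.09 to -0.50. With 2 glycylase genes, 1 lower and 1 not called, the medians describe these genes and not their enzyme class, and the difference between the classes was not tested. Of the glycylase probe sets, 4 of 7 were called with either block, and of the glutamylase probe sets 2 of 11 with the replicate block and 0 of 11 with the batch block.

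The genotype differences had the same sign in both replicate pairs for Ttll10, Ttll9, Ttll7 and Ttll1, and were smaller in replicates 3 and 4. This was not particular to them. Ttll3 gave -0.33 and -0.14 on 1436604_at and -0.38 and -0.00 on 1421219_at. Ttll4 gave 0.28 and 0.08 on 1428911_at, but on 1436249_at its difference was larger in replicates 3 and 4 (-0.08 and -0.51). For 1442762_at of Ttll10 replicates 1 and 2 gave a log2 difference of -2.11 and replicates 3 and 4 one of -1.43, and for 1460494_at it was -2.27 and -1.62. For 1430864_at of Ttll9 the values were -1.11 and -0.71, and for 1431029_at they were -1.10 and -0.62. For 1431279_s_at of Ttll5 they were -0.79 and -0.20. None of the 20 member probe sets was called within either pair alone, where each genotype has 2 mice. Of all 27022 probe sets, 0 were called within replicates 1 and 2 and 23 within replicates 3 and 4, so the lack of member calls there is not particular to the members. No interaction was called either, among members or among all 27022 probe sets (0% in each direction, with 1 of 20 members and 2.35% of all at a negative interaction with unadjusted p under 0.05 in limma, and 0 of 20 and 2.85% at a positive one). Between the pairs themselves 3 of 20 member probe sets were called lower in replicates 3 and 4 (2 of Ttll1 and 1436249_at of Ttll4) and 1 higher (1421219_at of Ttll3), against 17.5% and 22.9% of all. Ttll9 and Ttll10 were not among them.

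**Figure D3:**
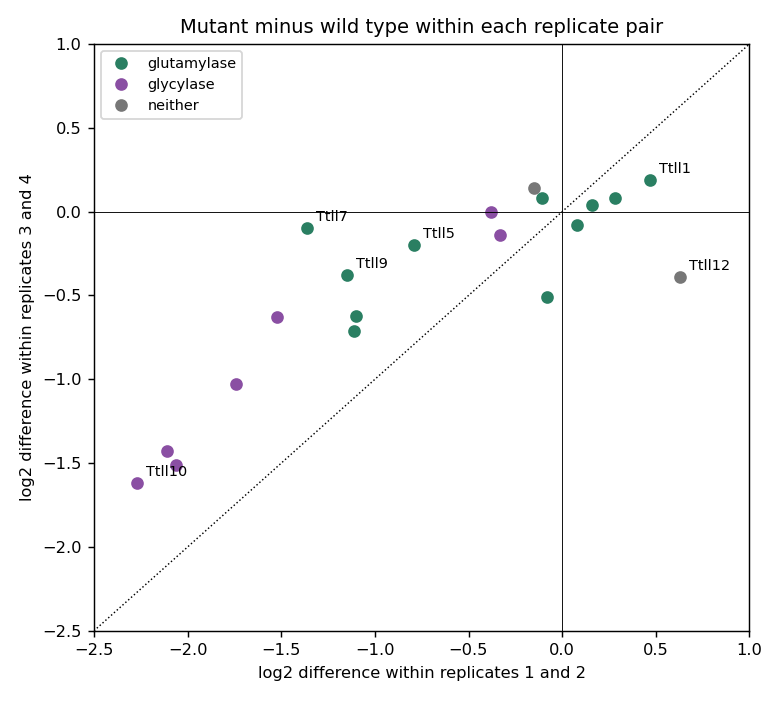
Log2 difference of mutant minus wild type within replicates 1 and 2 (horizontal axis) and within replicates 3 and 4 (vertical axis) for the 20 tested member probe sets, coloured by enzyme group, with the line of equal values dotted; a gene name stands at 1 probe set of that gene. The Ttll10 and Ttll9 points all lie at lower left and above the line, as at -2.27 and -1.62 for 1460494_at, and the labelled Ttll12 point lies at 0.63 and -0.39; signs also differ between the pairs, by less, for the other Ttll12 point (-0.15 and 0.14), 1452890_at of Ttll5 (0.08 and -0.08) and Ttll6 (-0.11 and 0.08).

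The calls depended on single mice more than the differences did. Mutant replicate 1 had the lowest Ttll10 and Ttll9 values, and dropping it from the batch-block fit kept the calls of the same 4 Ttll10 probe sets. Over the whole table the calls then went from 477 to 689. In the batch-block fit 6 of 20 were called when wild-type replicate 4 was dropped (590 over the whole table). With mutant replicate 2 dropped the count was 4 (459 over the whole table), and with mutant replicate 4 dropped it was 2 (233 over the whole table). Dropping mutant replicate 3, or any one of wild-type replicates 1, 2 and 3, left 0 of 20. Calls over the whole table fell in the same fits, from 477 to between 43 and 53 where no member was called. In the replicate-block fit, dropping 1 number from both genotypes gave 4 calls without number 1, 0 without number 2 or 3, and 7 without number 4. The 4 were all of Ttll10, so Ttll9 was called only in the fit without number 4. Over the whole table these fits called 538, 4, 14 and 960 of 27022 without numbers 1, 2, 3 and 4, against 630 with all mice. The member counts were thus 0 where the whole table had its fewest calls. They did not follow those calls in every fit, as the 4 calls at both 477 and 689 show. Over the fits without a block that leave out 1 mouse, the log2 difference of 1442762_at stayed between -1.95 and -1.53 and that of 1430864_at between -1.11 and -0.79.

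Markers of late spermatids moved with Ttll9 and Ttll10. Of all probe sets, 35.8% had negative differences, and 0.111%, 2.12% and 1.45% were called lower in the unblocked, replicate-block and batch-block fits. The shares called higher were 0%, 0.211% and 0.311%. All 11 measured genes of the late spermatid list, among them the protamines and transition proteins, had negative differences, and 1, 10 and 8 were called lower in those fits. Their summed intensity was 83357 to 149077 in wild type and 4664 to 30995 in mutants. Within each genotype it was lowest in wild-type replicate 4 and mutant replicate 1, which also held the lowest values of most Ttll10 and Ttll9 probe sets. The 10 markers of round spermatids were all negative too, with a median log2 difference of -0.87 against -3.20 for late spermatids, and 1 was called lower with either block. Their summed intensity was 23611 to 32389 in wild type and 11353 to 22695 in mutants, also without overlap. Of 9 meiotic markers none was called lower, 1 was called higher with either block, and the median was -0.03, with 7 of 9 differences negative. Their summed intensity, in which bright genes weigh most, was nevertheless higher in every mutant, at 42758 to 46086 against 34605 to 37741 in wild type. A list for ciliated epithelium, where Ttll genes are also used, held the water channels Aqp1 and Aqp9 too, so it is not one of ciliated cells alone. The summed intensity of its 7 measured genes was 6627 to 8318 in wild type and 4946 to 7194 in mutants, overlapping ranges in which bright genes again weigh most. By gene the median log2 difference was 0.23, with 3 of 7 negative. Between genotypes 0 were called, and Cdc20b and Trp73 were under the filter. Of the Sertoli markers 9 of 10 were tested and of the Leydig markers 5 of 5, with 0 called between genotypes and a median of 0.16 in each list. The Sertoli markers summed to 34100 to 40482 in wild type and 37104 to 48500 in mutants, and the Leydig markers to 15436 to 25880 and 19537 to 28555, both overlapping. The part of any of these cells in the Ttll values was not tested, and in whole testis fewer cells of a type and less RNA per cell cannot be told apart.

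Other genes of the tubulin code gave no calls between genotypes. Of 21 listed, 17 were measured, with 33 tested probe sets, and 0 were called in either direction in any of the 3 fits (limma). Of all probe sets, 0.111%, 2.12% and 1.45% were called lower in the unblocked, replicate-block and batch-block fits, and 0%, 0.211% and 0.311% higher. The 0 of 33 is close to these shares. Ttll8, the other enzyme that starts glycine chains and one named here for that role after its values were seen, read 9720.3, 9177.7, 5940.4 and 6121.9 in wild type and 11344.0, 12658.3, 6765.6 and 6557.2 in mutants on 1439140_at. Mutants were above the wild type of the same number in all 4 pairs, by a log2 difference of 0.24, without a call (limma, adjusted p = 0.214 with the replicate block), and replicates 3 and 4 were lower by 0.75 log2 units (log2 difference -0.75, limma adjusted p = 0.000145). The 4 genes with the smallest p in the replicate-block fit were Sirt2, a deacetylase that acts on tubulin (log2 difference 0.34), Vash2, a carboxypeptidase that removes the last tyrosine of alpha-tubulin (-0.71), Tpgs2, a subunit of the complex of Ttll1 (-0.34), and the glutamylase Ttll11 (-0.62). Their adjusted p ran from 0.141 to 0.179 (limma, replicate block). Vash2 read 889.4, 922.8, 982.7 and 851.8 in wild type and 297.5, 610.1, 620.7 and 804.0 in mutants, without overlap. A further tested probe set of Ttll11, 1430064_at, had the opposite sign, 0.28.

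Among the tubulins, which these enzymes modify, 2 of 12 tested genes were called lower with either block, both alpha-tubulins, 0 of 12 without a block, and 0 higher in any of these fits (limma). By probe set this was 3 of 18 with either block, while of all probe sets 2.12% (replicate block) or 1.45% (batch block) were called lower. Tuba8 read 3056.0, 4630.6, 2777.1 and 1444.2 in wild type and 120.8, 775.6, 351.6 and 517.5 in mutants on 1419518_at. The groups did not overlap, and the level was 7.24-fold lower (log2 difference -2.86 ± 0.53, SE; limma, adjusted p = 0.0919, 0.0159 and 0.0288 in the unblocked, replicate-block and batch-block fits). Tuba4a, whose gene encodes an alpha-tubulin made without the final tyrosine, read 3973.1, 5651.3, 3943.0 and 2796.1 against 542.0, 1333.4, 1131.1 and 1438.4 on 1417373_a_at, 3.76-fold lower (limma, adjusted p = 0.0778, 0.0141 and 0.0219 in those fits). Its second probe set, 1417374_at, was 3.92-fold lower (limma, adjusted p = 0.0629, 0.0173 and 0.0164). Tubb2a (-0.36) and Tuba1a (0.17) had the next smallest p and were not called. Over the list the median log2 difference was 0.03 by gene, beside 0.07 for all probe sets.

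**Figure D4:**
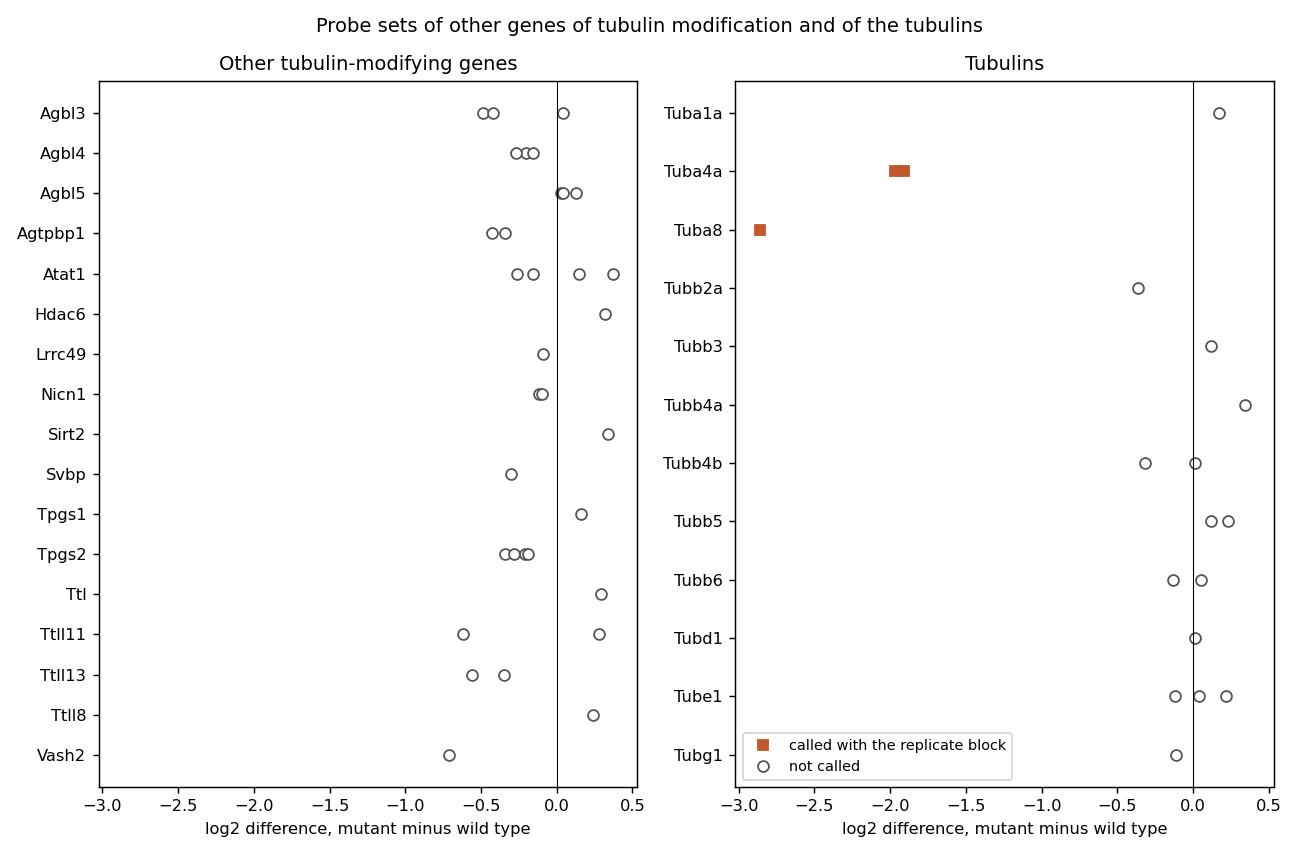
Log2 difference of mutant minus wild type (horizontal axis) for each tested probe set of 17 other genes of tubulin modification (left) and of 12 tubulin genes (right), 1 row per gene; filled squares were called with the replicate block. Only the 2 probe sets of Tuba4a and the 1 of Tuba8 are filled, at -1.97, -1.91 and -2.86, and every probe set at left is open, between -0.71 and 0.37.

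The genes whose values followed Ttll10 and Ttll9 most closely over the 8 arrays were found among 13778 other genes, each read by its brightest probe set, by Pearson's r of log2 values. For 1442762_at of Ttll10 they were Clmn (r = 0.998, log2 difference -2.21), Wbp2nl (r = 0.996, -2.13) and Kctd16 (r = 0.996, -1.67). Wbp2nl encodes a protein of the perinuclear theca of sperm, and Clmn encodes calmin. For 1430864_at of Ttll9 they were Clpb (r = 0.993, -1.09), a mitochondrial chaperone, Mex3d (r = 0.993, -1.23), an RNA-binding protein, and the clone-named gene 4933417D19Rik (r = 0.992, -1.68). All 6 were called lower with the replicate block, which follows from choosing them for closeness to probe sets called lower in that fit and adds no support. The correlations are over 8 points that share genotype and array, and describe the values in these 8 mice only.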

How the data were processed

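Total RNA of whole testes from 8 mice, 4 per genotype, was read on 1 array each. The deposited intensity values are on a linear scale and come from GCOS, Affymetrix's array software, as named in the submitters' processing notes. Which release and options were used is not given in the sources used here. No detection calls were used. In the deposited table each array has a mean of 500 after trimming 2% at each end, so values are scaled per array, and medians ran from 90.7 to 124.1. Of 45101 probe sets, 64 controls were left out; 34945 had 1 symbol, 932 several and 9160 none, and 34754 symbols were looked up by Entrez identifier in the RefSeq table of GRCm38.p6.

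Intensities were transformed as log2(intensity + 16), probe sets with a mean at or below the 40th percentile (an intensity of 63.1) were left out, and 27022 were tested with limma 3.58.1 (R 4.3.3; lmFit, eBayes with trend, two-sided, Benjamini-Hochberg, threshold 0.05). The main fit had no block. Same-numbered mice of the 2 genotypes deviated together (r = 0.518, 0.618, 0.605 and 0.595 for numbers 1 to 4). The replicate block takes the numbers as pairing, and its values are given beside those of the batch block. By closest match only 2 of the 8 mice had their own number nearest. Every mouse was nearest to a mouse of its own replicate pair, so pairing by number within a pair is not shown. Of the 3 fits, the replicate block alone called Ttll9. The calculations were tested on simulated data. Alternatives covered scaling, pseudocount, filter, variance model, array weights, 1 probe set per gene and mice left out.

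The members and the gene lists were chosen with earlier results of these data known. Every member probe set is named, with up to 4 genes per pathway list by smallest p of the replicate-block fit and the 3 genes most correlated with each called member. The labels give 1 mouse per array, and 4 mice per genotype limit the precision.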

Additional observations from a re-analysis of the deposited data

Results flagged for a closer look

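Of 56 groups of 4 mice examined for the 28 Ttll probe sets, 4 held a mouse far from the other 3 by Dixon's criterion, and chance gives about 1 in 20. Mutant replicate 1 was the mouse in 3 of them. For Ttll10 on 1453717_s_at it read 59.7, against 133.5 to 144.3 in the other mutants. For Ttll7 on 1430615_at it read 25.5, against 130.6 to 144.0. For Ttll6 on 1455780_at it read 806.0, against 1075.2 to 1139.5. Ttll1 on 1443193_at, a dim probe set under the filter, read 22.3 in mutant replicate 3 against 2.1 to 3.8 in the other mutants.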

How the results depend on the processing

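Without a block 0 member probe sets were called lower (limma; 9 at an unadjusted p under 0.05), also with quantile normalization, median centring, pseudocounts of 1 and 64, no filter, the filter at the 60th percentile, no intensity trend and robust eBayes. The count was 6 with the replicate block, 4 with the batch block and 6 with array weights, a fit that also had no block. Alternatives chosen after seeing the data gave 3 and 2 without the filter, with the replicate and the batch block, all of Ttll10. With the replicate block they gave 6 with quantile normalization, 7 with median centring and 1 gene, Ttll9, with 1 probe set per gene. Leaving out mice, with or without a block, gave 0 to 7. The count called higher was 0 in every setting run.

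The glycylase median was -0.66 in place of -1.38 without the filter (with no block or either block), with 1 probe set per gene (likewise) and over genes, and -1.65 to -1.10 with mice left out. The glycylase minus the glutamylase median was -1.63 within replicates 1 and 2, -0.41 without the filter, -0.50 with 1 probe set per gene or over genes, the same with either block, and -1.43 to -0.86 with mice left out. The glutamylase median was -0.42 to -0.16 with mice left out. No single member probe set was called in the main fit, so none had a call to lose. Of 762 values of single probe sets under the alternatives, 63 were called, all of Ttll10 and Ttll9. Of those not called, 692 moved by less than the spread between replicates and 7 by more, and 44 changed sign. Counting Ttll2 as a glutamylase was not run, since no probe set was matched. Dim probe sets carry the least signal over background, and 8 of the 28 were not tested for that reason.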
